A study of Mus musculus with 6 samples.

Results

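Heparan sulfate proteoglycans and the enzymes that build and trim their sugar chains were examined as 37 genes chosen for their roles, 11 core proteins and 26 enzymes. Each was taken from the deposited table by its gene name, and all 37 had a value in every library, of 21553 genes with values and 22667 rows in all. The genes were followed in kidneys of mouse embryos at E13.5, where 3 embryos were Fat4-/- mutants and 3 were Fat4+/+ wildtype. Both kidneys of an embryo, cut free of most of the ureter, made 1 library of total RNA, and all embryos came from 1 pregnant female. The strain of both groups is C57BL6/6, backcrossed 6 times. Dividing ureteric bud, condensing mesenchyme and the stroma around them were all in the tissue. The study asks how Fat4, an atypical cadherin, together with the Dachsous cadherins limits the pool of nephron progenitors. Which part of Fat4 the mutation removes was not stated, and no treatment was listed for either group.

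Heparan sulfate is an unbranched sugar chain fixed to serines of a core protein through a short linkage region, then lengthened, and then sulfated at chosen positions in the Golgi. The pattern of sulfates sets how well the chain holds Fgf, Wnt, Bmp and Gdnf ligands, so that the chains act as co-receptors and stores for signals. In the mouse the system is known from kidney development: loss of Hs2st1, which sulfates the uronic acid, or of Glce, which turns glucuronic into iduronic acid, leaves embryos without kidneys, and loss of the glypican Gpc3 gives overgrown, dysplastic kidneys.

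In these kidneys no heparan sulfate gene of the 37 passed the test between genotypes. Levels are in cRPKM, the authors' corrected form of RPKM, a read density scaled to gene length and library size, so that genes can be set side by side. The 34 members that averaged 1 cRPKM or more were tested, and limma called 0 of them higher and 0 lower in mutant kidneys (adjusted p under 0.05 over all 12315 tested genes). Of all tested genes 1.43% were called, 0.552% higher and 0.877% lower. At an unadjusted p under 0.05, 2 members were higher (Sulf2 and Hs6st2) and 3 lower (Sdc2, Ugdh and Sulf1), against 5.08% of all tested genes higher and 7.97% lower (13.0% in all). These 5 were also the members for which no mutant value lay within the wildtype range or the reverse, which held for 18.2% of all tested genes (7.23% with mutant values higher). The members' median log2 fold change, mutant minus wildtype on log2(cRPKM + 1), was 0.01, and that of all tested genes was -0.01. It was above 0 for 19 of the 34, against 43.2% of all tested genes. For 33 of the 34, all but Sulf1, the 95% interval of the fold change lay within 1.5-fold in either direction, as it did for 97.6% of all tested genes. The other 3 members, Extl1, Ndst3 and Hs6st3, were too low to test. Since members had to reach the minimum to be tested, these counts describe the 34 and not all 37.

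**Figure D1:**
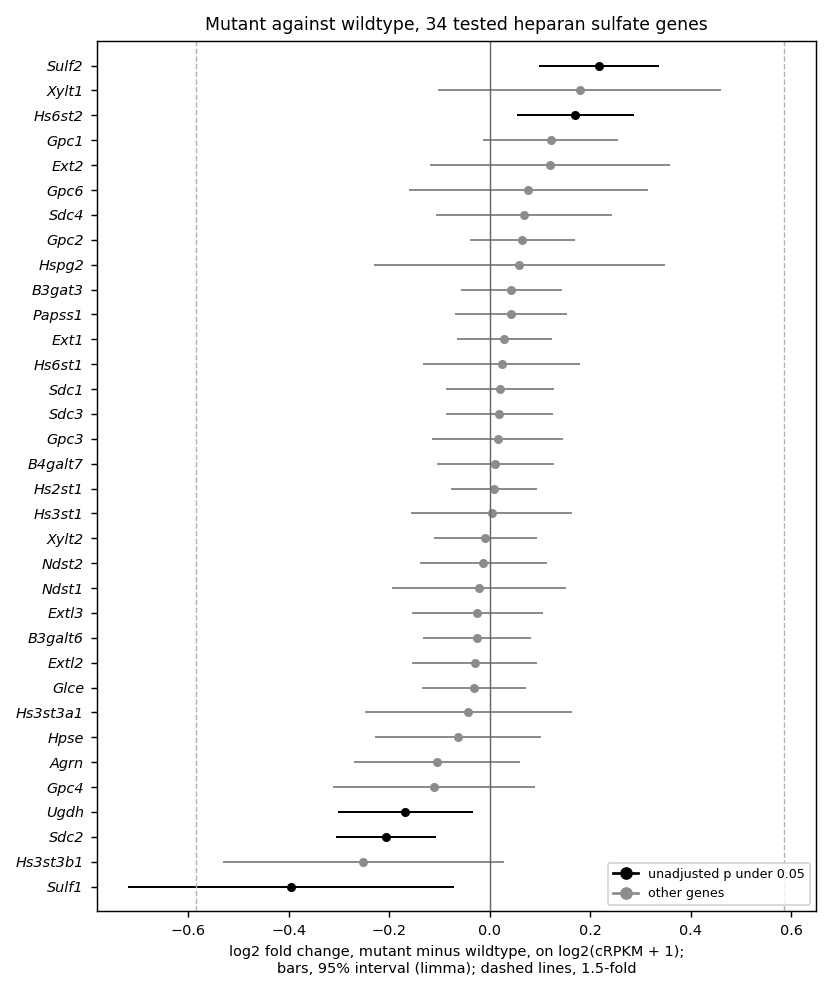
Log2 fold change (mutant minus wildtype, on log2(cRPKM + 1), x axis) of the 34 tested heparan sulfate genes (rows, ordered by fold change), with bars for the 95% interval from limma and dashed lines at 1.5-fold. Black marks the 5 genes with an unadjusted p under 0.05, and 33 of the 34 intervals, all but that of Sulf1, lie between the dashed lines.

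Fat4 went with the labels in every library. It was at 7.82, 7.20 and 7.49 cRPKM in the mutant libraries, against 16.74, 15.69 and 16.83 cRPKM in the wildtype libraries, or 45.7% of wildtype (log2 fold change -1.03, limma adjusted p = 0.000155). Sex was uneven: mutant embryos 2 and 3 had at most 0.05 cRPKM of any of 4 Y-linked genes, which were at 7.79 cRPKM or more in mutant embryo 1 and in the 3 wildtype embryos. Read totals are unknown, and steps of whole reads were found in too few low genes to fix the depth (17 to 23 of 28 to 35 genes used in a library). Of the tested markers of other cell types, where 1.43% of all tested genes were called, limma called 3 of 14 for nephron progenitors (higher, median log2 fold change 0.23), 3 of 15 for the early nephron (lower, median -0.33), 2 of 18 for stroma (lower, median -0.23) and 1 of 10 for endothelium (lower, median -0.04). It called 0 of 11 for ureteric epithelium (median -0.23, 7 lower at an unadjusted p under 0.05), 0 of 3 for podocytes (median -0.31, 3 lower) and 0 of 9 for the ureteric bud tip (median 0.17, 4 higher). No marker of macrophages, erythroid cells, nerve, adrenal cortex and gonad or skeletal muscle was called by limma, and at an unadjusted p under 0.05 there were 2 of 6 for macrophages and 0 for the others. Their part in the values of the heparan sulfate genes was not tested, and in whole kidneys fewer cells of a type and less RNA per cell cannot be told apart.

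Glypicans, core proteins held to the membrane by a lipid anchor, were the most abundant class. Gpc3 was at 477.43, 487.49 and 466.41 cRPKM in mutant libraries, against 476.80, 495.40 and 444.38 cRPKM in wildtype libraries, which put it above 99.5% of the genes with values. It made up 78.3% ± 1.08 of the summed glypican cRPKM in mutant kidneys and 79.1% ± 1.38 in wildtype kidneys (SD, n = 3 each). The groups overlapped for Gpc3, and the 95% interval of its log2 fold change ran from -0.11 to 0.14. Gpc1 followed at 49.31, 54.23 and 54.03 cRPKM in mutant libraries, against 45.06, 48.64 and 50.96 cRPKM in wildtype libraries. Wildtype embryo 3 reached into the mutant range, and Gpc1 was not called (log2 fold change 0.12, SE 0.0576, limma adjusted p = 0.428). Exons of Ankmy1 on the other strand overlap 18.9% of its exon bases, and Ankmy1 was at 0.05 to 0.14 cRPKM in mutant and 0.10 to 0.12 cRPKM in wildtype libraries. Gpc2 averaged 38.4 ± 0.831 cRPKM in mutant and 36.7 ± 1.81 cRPKM in wildtype kidneys, and Gpc6 averaged 33.3 ± 5.33 cRPKM in mutant and 31.3 ± 1.30 cRPKM in wildtype kidneys (SD, n = 3 each). For Gpc6 the spread lay in mutant embryo 2, at 27.17 cRPKM against 36.15 and 36.63 cRPKM in the other mutant embryos, and without that library the log2 fold change was 0.21 in place of 0.08, neither called. Gpc4, the lowest of the 5, averaged 7.76 ± 0.601 cRPKM in mutant and 8.49 ± 1.13 cRPKM in wildtype kidneys (SD, n = 3 each). Gpc3 and Gpc4 are neighbours on the X chromosome (52272426 to 52613950 and 52053021 to 52165252, GRCm38). Mutant embryo 1, which expressed the Y-linked genes, lay within the range of the other libraries for Gpc3 and was the lowest of 6 for Gpc4 at 7.14 cRPKM.

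Among the syndecans, which cross the membrane and carry chains near their outer end, 3 of 4 had overlapping groups and Sdc2 was lower without passing. Sdc2 (chromosome 15, 32920723 to 33034935, GRCm38) had values of 21.55, 21.45 and 20.74 cRPKM in mutant libraries, against 25.74, 24.52 and 23.78 cRPKM in wildtype libraries. All 3 mutant values lay below all 3 wildtype values, and the mean in mutant kidneys was 0.861 of the wildtype mean. It had the smallest p of the 34 tested members (log2 fold change -0.21, SE 0.0425, unadjusted p = 0.00113, limma adjusted p = 0.0633), and it passed when libraries were weighted by their fit (adjusted p = 0.0386). Sdc1, the syndecan best known from epithelia, was at 34.34, 36.03 and 36.71 cRPKM in mutant libraries, against 34.26, 37.03 and 34.30 cRPKM in wildtype libraries. Sdc3 was at 26.55, 27.40 and 29.24 cRPKM in mutant libraries, against 26.59, 27.73 and 27.69 cRPKM in wildtype libraries. Both sets of values overlapped almost fully. Sdc4 averaged 27.1 ± 0.999 cRPKM in mutant and 25.9 ± 3.03 cRPKM in wildtype kidneys (SD, n = 3 each). With Sdc2 lower, the 4 syndecans still summed to 108.82 to 113.37 cRPKM in mutant and 110.08 to 115.08 cRPKM in wildtype libraries.

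The basement membrane proteoglycans varied more between embryos than between genotypes. Agrn, for agrin, which in the glomerulus sits in the basement membrane, was at 61.45, 59.20 and 67.24 cRPKM in mutant libraries, against 63.21, 64.78 and 74.53 cRPKM in wildtype libraries. Hspg2, for perlecan, was at 41.60, 34.88 and 47.64 cRPKM in mutant libraries, against 36.46, 35.86 and 46.62 cRPKM in wildtype libraries. For both, embryo 3 of each genotype was the highest of its group, and the groups overlapped (limma adjusted p = 0.610 for Agrn and 0.893 for Hspg2). Its wide scatter gave Hspg2 a 95% interval from -0.23 to 0.35 on the log2 scale, so the values remain compatible with changes within that range.

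**Figure D2:**
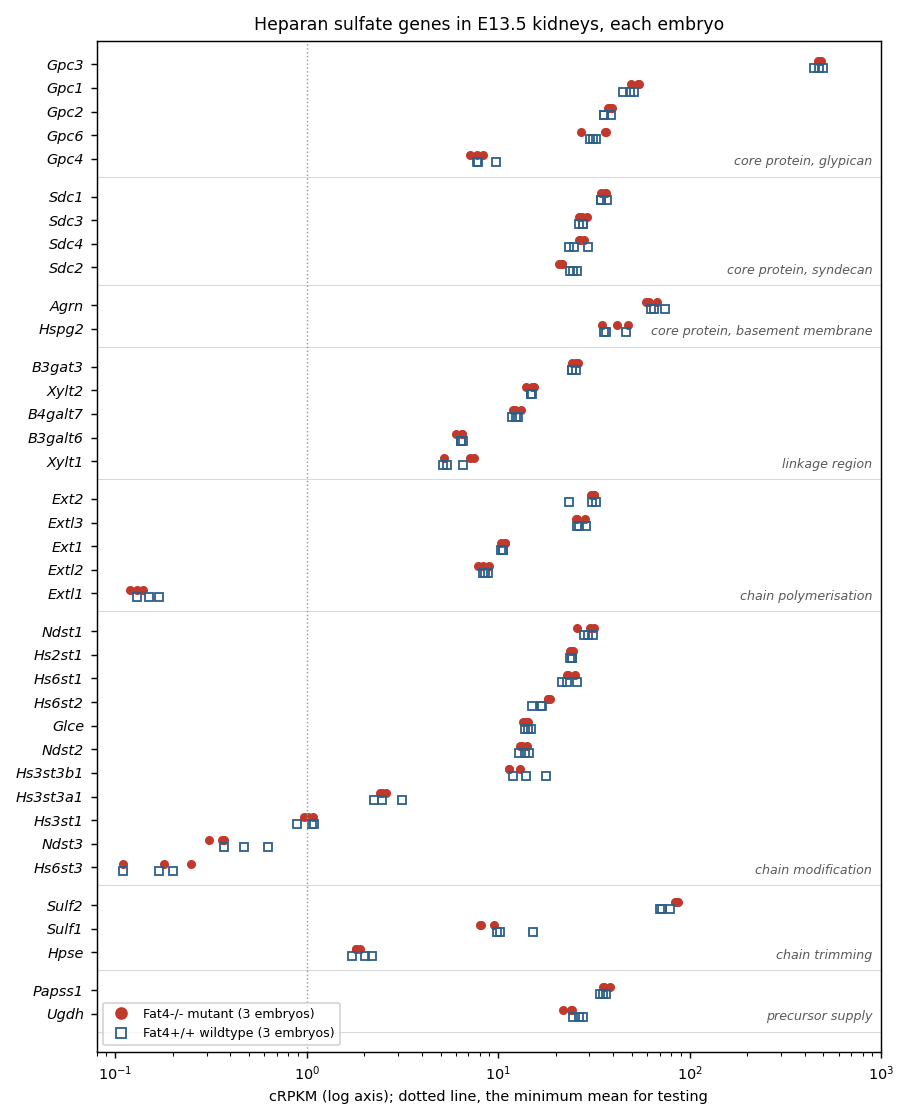
Level of each of the 37 heparan sulfate genes (rows, grouped by role and ordered by mean) in every embryo, as cRPKM on a log axis, with mutant embryos as filled circles and wildtype embryos as open squares. Gpc3 lies far above the rest at 444 to 495 cRPKM, 3 genes lie left of the dotted line at 1 cRPKM, and circles and squares overlap for all but Sdc2, Sulf1, Sulf2, Hs6st2 and Ugdh.

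The linkage region is built by a xylosyltransferase (Xylt1 or Xylt2), the galactosyltransferases B4galt7 and B3galt6 and the glucuronosyltransferase B3gat3, and for each of these 5 genes the groups overlapped. B3gat3, the highest, was at 24.34, 26.24 and 25.58 cRPKM in mutant libraries, against 24.23, 25.38 and 24.20 cRPKM in wildtype libraries. Xylt2 was at 15.06, 14.02 and 15.30 cRPKM in mutant libraries, against 14.82, 14.84 and 14.98 cRPKM in wildtype libraries. The coefficient of variation over the wildtype embryos was 0.586% for Xylt2 and 1.09% for B3galt6, beside a median of 5.99% over the tested members and 4.44% over all tested genes. B4galt7 averaged 12.5 ± 0.670 cRPKM in mutant and 12.3 ± 0.430 cRPKM in wildtype kidneys, and B3galt6 averaged 6.31 ± 0.261 cRPKM in mutant and 6.44 ± 0.0700 cRPKM in wildtype kidneys (SD, n = 3 each). Xylt1 was less even, at 7.14, 5.23 and 7.51 cRPKM in mutant libraries, against 5.16, 5.42 and 6.52 cRPKM in wildtype libraries. Mutant embryo 2 lay with the lower wildtype embryos, and without that library the log2 fold change of Xylt1 was 0.32 in place of 0.18, in neither case called.

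Chain growth is carried out by a complex of Ext1 and Ext2, after Extl3 has added the initial glucosamine. Ext1 was at 10.84, 10.38 and 10.92 cRPKM in mutant libraries, against 10.54, 10.35 and 10.56 cRPKM in wildtype libraries, with a log2 interval from -0.06 to 0.12. Ext2 was at 30.56, 31.49 and 31.67 cRPKM in mutant libraries, against 23.47, 30.85 and 32.46 cRPKM in wildtype libraries. A single library, wildtype embryo 1, stood apart for Ext2, and without it the log2 fold change was -0.02 in place of 0.12. Extl3 was at 25.73, 25.59 and 28.26 cRPKM in mutant libraries, against 25.70, 26.53 and 28.77 cRPKM in wildtype libraries, again with groups that overlapped. Extl2 averaged 8.37 ± 0.526 cRPKM in mutant and 8.56 ± 0.291 cRPKM in wildtype kidneys (SD, n = 3 each). Extl1 was near the floor of the table, at 0.12 to 0.14 cRPKM in mutant and 0.13 to 0.17 cRPKM in wildtype libraries.

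Chain modification starts with the N-deacetylase and N-sulfotransferase enzymes, of which Ndst1 and Ndst2 were expressed. Ndst1 was at 30.16, 25.90 and 31.62 cRPKM in mutant libraries, against 28.01, 29.40 and 31.41 cRPKM in wildtype libraries. The ratio of Ndst1 to Ndst2 was 2.16 ± 0.149 in mutant and 2.16 ± 0.0286 in wildtype kidneys (SD, n = 3 each). Ndst3 was low, at 0.31 to 0.37 cRPKM in mutant and 0.37 to 0.63 cRPKM in wildtype libraries. Both enzymes whose loss is known to leave mice without kidneys had overlapping groups. Glce was at 14.39, 13.45 and 13.99 cRPKM in mutant libraries, against 14.29, 14.76 and 13.78 cRPKM in wildtype libraries. Hs2st1 was at 24.52, 24.42 and 23.70 cRPKM in mutant libraries, against 24.22, 24.29 and 23.70 cRPKM in wildtype libraries. The highest Hs2st1 value was 1.03 times the lowest over all 6 libraries, and the interval of its log2 fold change ran from -0.08 to 0.09, the narrowest of the tested members. Hs2st1, Extl2, Papss1 and Ndst3 share chromosome 3 with Fat4 and lie 77.0 to 105.4 Mb from it (GENCODE M21, GRCm38).

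The enzymes that sulfate glucosamine at its outer carbon, the 6-O-sulfotransferases, were Hs6st1 and Hs6st2, with Hs6st3 at 0.11 to 0.25 cRPKM in mutant and 0.11 to 0.20 cRPKM in wildtype libraries. Hs6st2 (X chromosome, 51387212 to 51681856, GRCm38) had values of 18.64, 18.31 and 18.21 cRPKM in mutant libraries, against 16.93, 16.75 and 15.07 cRPKM in wildtype libraries. Every mutant value exceeded every wildtype value, and the mutant embryo that expressed the Y-linked genes had the highest of the 6. The mean was 1.13 times that of wildtype kidneys (log2 fold change 0.17, 95% interval 0.06 to 0.28, unadjusted p = 0.00882, limma adjusted p = 0.179), which did not pass. Hs6st1 averaged 23.7 ± 1.21 cRPKM in mutant and 23.4 ± 2.18 cRPKM in wildtype kidneys (SD, n = 3 each). The 3 genes summed to 41.28 to 43.58 cRPKM in mutant and 38.56 to 41.04 cRPKM in wildtype libraries, ranges that do not touch, and the sum was chosen after values were seen.

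The sulfatases Sulf1 and Sulf2 act outside the cell on the same position, taking 6-O-sulfates off finished chains. Sulf2 (chromosome 2, 166073089 to 166155663, GRCm38) had values of 84.00, 87.00 and 85.76 cRPKM in mutant libraries, against 71.44, 79.07 and 70.29 cRPKM in wildtype libraries. Its mean in mutant kidneys was 1.16 times that in wildtype kidneys, with no overlap (log2 fold change 0.22, SE 0.0511, unadjusted p = 0.00261, limma adjusted p = 0.0904). Sulf1 (chromosome 1, 12692277 to 12861192, GRCm38) had values of 8.06, 9.49 and 8.10 cRPKM in mutant libraries, against 15.13, 9.88 and 10.21 cRPKM in wildtype libraries. It had the largest fold change of the 34 tested members, but much of it came from wildtype embryo 1 (log2 fold change -0.40, SE 0.141, unadjusted p = 0.0219, limma adjusted p = 0.274, and -0.21 without that library). The 18 stromal markers, none at 0 in all libraries, summed to 984 to 1032 cRPKM in the mutant libraries, against 1271 cRPKM in wildtype embryo 1 and 1016 and 1111 cRPKM in the other wildtype libraries. Wildtype embryo 1 was also the highest library for skeletal muscle markers (9.35 cRPKM in sum, others 4.20 to 6.30). The same held for macrophages (29.0 cRPKM, others 21.99 to 25.54) and endothelium (218.4 cRPKM, others 192.6 to 217.8). The part of any of these cells in the Sulf1 values was not tested. The ratio of Sulf2 to Sulf1, chosen after the values were seen and so given with no test, was 10.4, 9.17 and 10.6 in mutant libraries, against 4.72, 8.0 and 6.88 in wildtype libraries. Together the pair summed to 92.06 to 96.49 cRPKM in mutant and 80.50 to 88.95 cRPKM in wildtype libraries, with Sulf2 as most of the sum, which was also chosen after values were seen. Exons of Ncoa3 on the other strand overlap 2.62% of the exon bases of Sulf2. Ncoa3 was at 14.86, 12.82 and 15.21 cRPKM in mutant and 14.54, 14.71 and 16.77 cRPKM in wildtype libraries. Its part in the Sulf2 values was not tested.

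**Figure D3:**
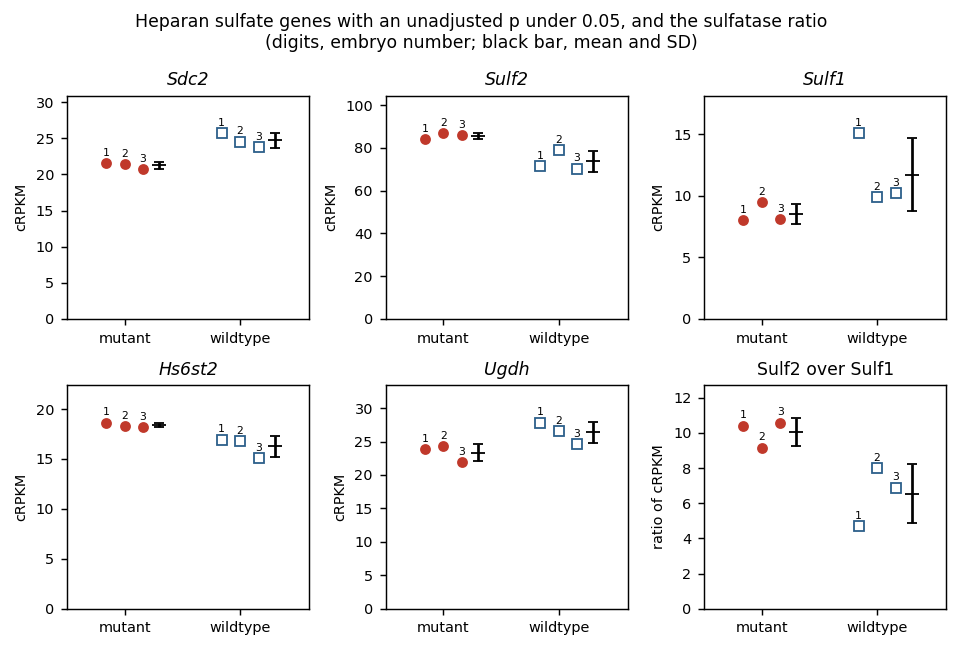
Values in each embryo (digits give the embryo number) of the 5 heparan sulfate genes with an unadjusted p under 0.05 and of the ratio of Sulf2 to Sulf1, with mutant embryos left of wildtype embryos, y axes in cRPKM or as a ratio, and black bars for the mean and SD of 3 embryos. In no panel do the groups overlap, and wildtype embryo 1 stands apart for Sulf1 at 15.13 cRPKM.

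The RefSeq promoters of Sulf2 and Hs6st2 are shown because these were the 2 members with every mutant value above every wildtype value and an unadjusted p under 0.05. RefSeq promoters (GRCm38.p6, from 250 bases before to 50 bases after a start) were found for 29 of the 37 genes, 35 promoters in all. Each of the 2 windows printed below runs 5′ to 3′ on the minus strand. Capitals mark the letters of a TATA box (TATAAA), wherever they stand in the window. Capitals also mark the core letters bound by the Tead factors, partners of Yap (GGAATG). The last letters marked are those of a GC box (GGGCGG). Both strands were searched for all of these, and the motifs do not overlap in either window. A further RefSeq promoter of each gene holds neither of the first motifs named and is not shown.
Sulf2, chr2:166155634-166155933: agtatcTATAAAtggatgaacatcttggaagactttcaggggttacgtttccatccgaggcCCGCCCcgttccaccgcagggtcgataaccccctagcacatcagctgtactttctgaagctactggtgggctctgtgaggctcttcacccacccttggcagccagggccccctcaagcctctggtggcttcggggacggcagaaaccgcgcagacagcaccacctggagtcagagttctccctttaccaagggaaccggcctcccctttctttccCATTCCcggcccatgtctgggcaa
Hs6st2, chrX:51681553-51681852: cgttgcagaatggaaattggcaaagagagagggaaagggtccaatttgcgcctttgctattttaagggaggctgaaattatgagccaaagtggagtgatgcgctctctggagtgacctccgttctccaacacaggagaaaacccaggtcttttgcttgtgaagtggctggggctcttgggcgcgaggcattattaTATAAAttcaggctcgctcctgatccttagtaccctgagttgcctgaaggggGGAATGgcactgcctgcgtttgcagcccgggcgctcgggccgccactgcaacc
These were the 2 members with a promoter that holds the TATA letters. Those letters stood in 2 of the 35 member promoters (5.71%), and in 13.6% of all 32851 RefSeq promoters. The Tead letters stood in 6 of the 35 member promoters (17.1%, those of B4galt7, Ext2, Gpc4, Hs6st2, Ndst2 and Sulf2), and in 14.7% of all promoters. The GC box stood in 22 of 35 (62.9%) and in 35.7% of all promoters, beside a median GC content of 66.3% in member promoters and 52.7% in all. A match gives letters in a window, at any distance from the start, and not a bound site.

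The 3-O-sulfotransferases add a rare, late sulfate, and Hs3st3b1 was the main one measured. It was at 11.45, 11.36 and 13.00 cRPKM in mutant libraries, against 11.97, 13.92 and 17.79 cRPKM in wildtype libraries, which overlapped (log2 fold change -0.25, SE 0.121, limma adjusted p = 0.433). Without wildtype embryo 3, its highest library, the log2 fold change was -0.11. The 16 early nephron markers, none at 0 in all libraries, also had their highest sum in that library. They came to 305 to 345 cRPKM in mutant libraries, against 422 cRPKM in wildtype embryo 3 and 336 and 368 cRPKM in the other wildtype libraries. Wildtype embryo 3 was also highest for ureteric epithelium (333 cRPKM in sum, others 264 to 288). The same held for podocytes (37.8 cRPKM, others 22.9 to 29.7) and nerve (20.8 cRPKM, others 14.4 to 19.3). The part of these cells in the Hs3st3b1 values was not tested. Hs3st3a1 averaged 2.49 ± 0.0945 cRPKM in mutant and 2.62 ± 0.465 cRPKM in wildtype kidneys (SD, n = 3 each), also with wildtype embryo 3 as the highest library. A gene on the other strand, F930015N05Rik, overlaps 32.9% of its exon bases. Hs3st1 averaged 1.02 ± 0.0557 cRPKM in mutant and 1.02 ± 0.110 cRPKM in wildtype kidneys (SD, n = 3 each).

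The values of Hs3st3a1 and Hs3st3b1 need care, because the genes share coding sequence. Their GENCODE M21 transcripts have a run of 401 identical bases, inside 1 coding exon of each (Hs3st3a1 at chr11:64520310-64520710 on the plus strand, Hs3st3b1 at chr11:63889233-63889633 on the minus strand, GRCm38). The lines give the 100 bases before the run in lower case and its initial 100 bases in capitals, 5′ to 3′, to show the sequence where the run starts. This window was chosen for the run, so its likeness does not stand for the whole transcripts.
Hs3st3a1: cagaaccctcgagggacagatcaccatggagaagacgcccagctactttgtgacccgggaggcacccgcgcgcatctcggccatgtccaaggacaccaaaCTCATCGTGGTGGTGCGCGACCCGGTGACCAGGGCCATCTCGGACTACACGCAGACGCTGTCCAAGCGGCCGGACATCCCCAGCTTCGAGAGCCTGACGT
Hs3st3b1: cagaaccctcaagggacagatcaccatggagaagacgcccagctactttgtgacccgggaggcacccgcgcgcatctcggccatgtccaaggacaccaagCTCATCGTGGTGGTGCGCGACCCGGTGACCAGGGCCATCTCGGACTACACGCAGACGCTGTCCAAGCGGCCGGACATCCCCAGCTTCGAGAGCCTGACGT
Over these 200 bases the genes differ by 2 substitutions, G11A and A100G, counted from 1 at the 5′ end of each line with the base of Hs3st3a1 written before the position and that of Hs3st3b1 after it. Of all stretches of 50 bases, 10.7% of those in the Hs3st3a1 transcript also occur in Hs3st3b1 and 8.56% of those in Hs3st3b1 in Hs3st3a1. No such stretch was shared between Sulf1 and Sulf2, Ext1 and Ext2, Ndst1 and Ndst2, or Hs6st1 and Hs6st2. How reads that match both genes were treated was not stated. The ratio of Hs3st3b1 to Hs3st3a1 was 4.65, 4.69 and 5.0 in mutant libraries, against 5.32, 5.66 and 5.67 in wildtype libraries. It was chosen after values were seen, as 1 of 6 ratios between members, of which this one and that of Sulf2 to Sulf1 had groups that did not overlap.

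Among trimming and supply genes, Hpse, for the heparanase that cuts chains, was low, at 1.84 ± 0.0577 cRPKM in mutant and 1.98 ± 0.238 cRPKM in wildtype kidneys (SD, n = 3 each). Ugdh, which makes the UDP-glucuronic acid used in the chain, was at 23.90, 24.26 and 21.88 cRPKM in mutant libraries, against 27.83, 26.60 and 24.64 cRPKM in wildtype libraries. The highest mutant and the lowest wildtype value were 24.26 and 24.64 cRPKM, so the groups were apart by little (log2 fold change -0.17, SE 0.0574, unadjusted p = 0.0184, limma adjusted p = 0.258). Papss1, which makes the sulfate donor PAPS, was at 35.74, 38.49 and 35.26 cRPKM in mutant libraries, against 36.71, 35.45 and 34.08 cRPKM in wildtype libraries, with no separation.

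Other genes of the pathway, from a list of 22, gave 1 call in 13 tested genes, 0 higher and 1 lower, with a median log2 fold change of -0.07. At an unadjusted p under 0.05, 2 of the 13 were higher and 4 lower, where 13.0% of all tested genes reached that level, and for 7 of the 13 the groups did not overlap, where that held for 18.2% of all tested genes. The called gene was Papss2, the other PAPS synthase, at 4.66 ± 0.381 cRPKM in mutant and 6.41 ± 0.493 cRPKM in wildtype kidneys (SD, n = 3 each, log2 fold change -0.39, limma adjusted p = 0.0367). Papss2 is also on the list of early nephron markers, and the part of those cells in its values was not tested. Spock2, for a testican proteoglycan, averaged 112 ± 5.27 cRPKM in mutant and 90.5 ± 7.15 cRPKM in wildtype kidneys (adjusted p = 0.0667), and Hs3st6, a further 3-O-sulfotransferase, averaged 8.36 ± 0.545 cRPKM in mutant and 7.13 ± 0.201 cRPKM in wildtype kidneys (adjusted p = 0.132). Neither passed. The remaining 3 with an unadjusted p under 0.05, named after their values were seen, were all lower and not called. Slc26a2, a sulfate transporter, averaged 5.79 ± 0.252 cRPKM in mutant and 6.58 ± 0.327 cRPKM in wildtype kidneys (limma adjusted p = 0.240). Slc35b3, which carries PAPS into the Golgi, averaged 7.83 ± 0.183 cRPKM in mutant and 8.63 ± 0.262 cRPKM in wildtype kidneys (limma adjusted p = 0.265). Fam20b, a kinase of the linkage xylose, averaged 25.1 ± 0.901 cRPKM in mutant and 27.1 ± 1.05 cRPKM in wildtype kidneys (limma adjusted p = 0.360). In the lysosomal breakdown list limma called 0 of 8 (1 at an unadjusted p under 0.05, median -0.01), with the smallest p for Naglu at 4.80 ± 0.240 cRPKM in mutant and 4.24 ± 0.195 cRPKM in wildtype kidneys. For the enzymes of chondroitin and dermatan sulfate, the other sulfated chains that start from the same linkage region, limma called 0 of 15 (2 at an unadjusted p under 0.05, median -0.04), and Chst15 had the smallest p (log2 fold change -0.20, limma adjusted p = 0.105). Of 4 tested chondroitin sulfate core proteins limma called 0 (1 at an unadjusted p under 0.05, median -0.22), with Bgn, for biglycan, at 32.2 ± 3.48 cRPKM in mutant and 42.1 ± 3.07 cRPKM in wildtype kidneys (adjusted p = 0.0699).

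Summed over roles, the 11 core proteins came to 819.53, 822.30 and 832.95 cRPKM in mutant libraries, against 806.21, 835.58 and 809.75 cRPKM in wildtype libraries. The 26 enzymes came to 433.42, 435.90 and 442.87 cRPKM in mutant libraries, against 419.25, 433.11 and 432.47 cRPKM in wildtype libraries. Of 10 such sums, all chosen after values were seen, those of the enzymes, the sulfatases and the 6-O-sulfotransferases had groups that did not overlap. Core protein values overlapped, with a mean 1.01 times the wildtype mean. The enzyme sums did not, with a mean 1.02 times the wildtype mean, and Sulf2 alone had a mean of 85.6 cRPKM in mutant and 73.6 cRPKM in wildtype kidneys. Within the wildtype group, embryo 3 lay farthest from the wildtype mean for 20 of the 34 tested members, embryo 1 for 8 and embryo 2 for 6. The same count over all tested genes was not made, so it does not set the members apart. Over all tested genes the library weight by fit was 0.65 for wildtype embryo 3, against 0.85 for embryo 1 and 2.63 for embryo 2.

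The 5 members with an unadjusted p under 0.05 kept their direction under each of the 16 alternatives plotted here, from other pseudocounts and scalings to leaving out each library. For most alternatives this was fixed in advance, because the groups did not overlap for these 5. Leaving out libraries or changing the pseudocount, filter, variance trend or weights could not turn the sign. The Y-linked covariate could hardly do so, as its genotype term leans on mutant embryo 1, which lay beyond the wildtype range for all 5. Scaling could have done so only by a large shift, and median scaling moved the members' median log2 fold change from 0.01 to 0.03. The kept direction therefore adds little. Over all settings plotted the log2 fold change of Sdc2 ran from -0.23 to -0.18, that of Sulf2 from 0.16 to 0.27 and that of Hs6st2 from 0.12 to 0.20. Ugdh ran from -0.21 to -0.12, and Sulf1 from -0.50 to -0.21. Sdc2 with library weights was the 1 call among them. All 3 wildtype embryos expressed the Y-linked genes. With the level of those genes as a covariate for sex, the genotype term therefore rests almost wholly on mutant embryo 1. The log2 fold changes were then -0.19 for Sdc2, 0.19 for Sulf2, 0.19 for Hs6st2, -0.13 for Ugdh and -0.46 for Sulf1. Mutant embryo 1 itself deviated from the wildtype mean by -0.19, 0.19, 0.19, -0.13 and -0.47 for these genes in the same order.

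**Figure D4:**
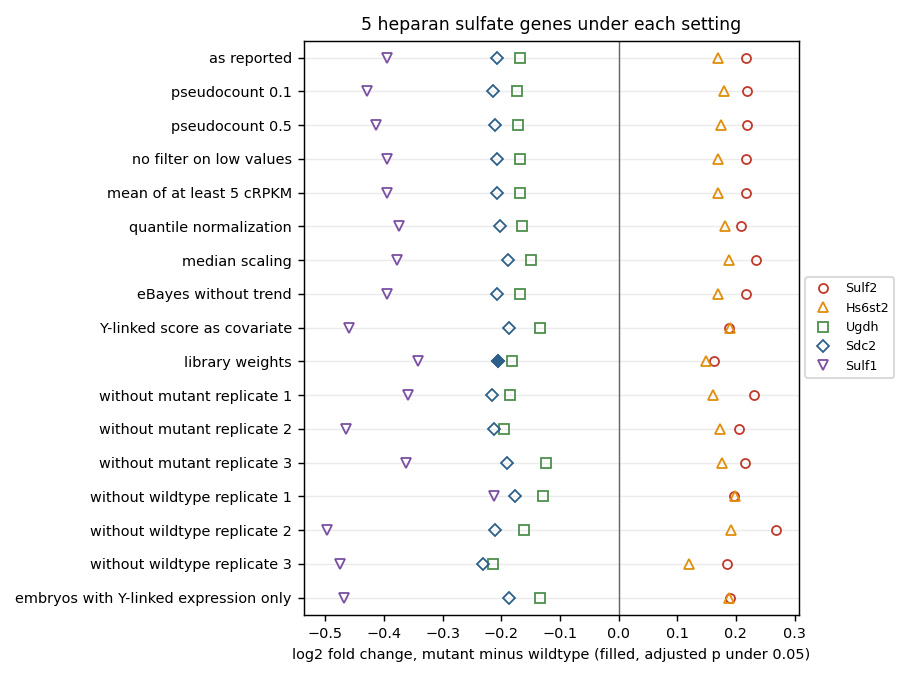
Log2 fold change (mutant minus wildtype, x axis) of Sulf2, Hs6st2, Ugdh, Sdc2 and Sulf1 as reported and under 16 alternatives (rows), with filled marks where the adjusted p was under 0.05. Every gene stays on its side of 0, which most alternatives could not change because the groups of these genes do not overlap. The 1 filled mark is Sdc2 with library weights.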

How the data were processed

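The authors deposited a single table of genes by libraries. Its values are cRPKM, a corrected RPKM, from trimmed reads, per the file headers; the correction is not described there. Bowtie and the mm9 build are named, without versions, in the submitters' processing notes. Columns were matched to samples by the header text in each sample's description. Of 22667 genes 1114 hold no value, and 2818 are at 0 in every library.

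After adding 1 and taking log2, cRPKM values went into limma 3.58.1 (R 4.3.3; trended eBayes, 2-sided, genotype alone). The 12315 genes averaging 1 cRPKM or more entered, with Benjamini-Hochberg adjustment over all of them and calls at 0.05. The script was tested on simulated data. The added 1 makes log2 fold changes too small for low genes, while ratios, means and SDs use plain cRPKM. An exact permutation test of 3 embryos against 3 cannot go below p = 0.1. The embryos are separate animals of a single litter. Positions are from GENCODE M21 (GRCm38) and promoters from RefSeq (GRCm38.p6), builds that differ from mm9; no coordinates were converted. Whether counting used strand is not stated, and 6 members overlap exons of a gene on the other strand.

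Values in every library are given for members with an unadjusted p under 0.05, the 2 highest of each role class, and Gpc3, Ext1, Ndst1, Hs2st1, Glce, Sulf1 and Sulf2, and for others where 1 library decided a value. The members, lists and tests were chosen with earlier results of these data known. Alternatives covered the pseudocount, the filter, scaling, the variance trend, library weights, a block by embryo number, a Y-linked covariate, each library left out, and, chosen after seeing the data, the 4 embryos that express the Y-linked genes.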

Additional observations from a re-analysis of the deposited data

How the results depend on the processing

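None of the chosen heparan sulfate members was called in the reported fit, and none under 15 of 17 alternatives. The exceptions are library weights (1 call, Sdc2) and the embryo number as a replicate block (1 call, Sdc2, adjusted p = 0.0461). Leaving out each library in turn gave 0 calls among the members every time. Over all genes the count of calls, 176 as reported, was 32 with no filter on low values, 109 with a mean of at least 5 cRPKM, 2 with the Y-linked score as covariate and 4 in the embryos with Y-linked expression, where the lone mutant is assumed to vary like the wildtype embryos. In both settings that use Y-linked expression the genotype term rests wholly or almost wholly on mutant embryo 1. With 1 library left out the count ran from 24 to 132. The cause was not tested. With the replicate block it was 273. The labels do not say that embryos of 1 number belong together, and deviations from the group means correlated at 0.0985, 0.205 and 0.277 for embryos of the same number, with mutant embryos 1 and 2 each closer to a wildtype embryo of another number, so the block is not used elsewhere. Of the 34 tested members, 16 kept their sign in all settings, and the other 18 changed sign in at least 1. Genes under 1 cRPKM were not tested, and at 3 embryos a group, changes under the interval widths given could not be seen.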
